A study of Arabidopsis thaliana with 12 samples.

Results

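The 7 genes described here belong to, or are linked with, the thiol-based and ascorbate-based defence of plant cells against peroxide and superoxide. They are AT3G52960, SRX, CCS, GLDH, NTRC, AT2G04700 and AT5G58330, taken as a fixed list of loci that each have a row of their own in the deposited table. They make up 7 of 692 rows with a single named gene and 7 of 3439 rows in all. The arrays measured total RNA of wild-type Arabidopsis thaliana, ecotype Columbia 0. In the treated group, 6 samples received staurosporine, a broad inhibitor of protein kinases, at 2 µM during 4 h. Ascorbate at 25 mM and pH 5.5 followed over the next 4 h. The other 6 samples were held in water for 8 h. Each group has replicates numbered 1 to 6. The labels say neither which tissue was taken nor whether a number is a separate plant, culture or day, so the spread behind each p-value is that between these samples and may be technical. No sample received either compound alone or the acidic pH without ascorbate, so the effects of staurosporine, ascorbate and pH cannot be told apart.

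Peroxiredoxins are enzymes that reduce hydrogen peroxide and organic peroxides with a reactive cysteine. That cysteine must then be reduced again, by thioredoxins, glutaredoxins or dedicated reductases, and sulfiredoxin repairs it when peroxide has oxidised it too far. In chloroplasts the electrons come either from light-reduced ferredoxin, through ferredoxin-thioredoxin reductase, or from NADPH, through NTRC. The same thioredoxins switch on metabolic enzymes such as NADP-dependent malate dehydrogenase, which carries surplus reducing power out of the chloroplast. Ascorbate, whose synthesis ends with GLDH, feeds a parallel route that removes peroxide. The annotation used gives symbols for SRX, CCS, GLDH and NTRC. AT5G58330, AT3G52960 and AT2G04700 have only their locus as symbol. The gene table lists NADP-MDH as a synonym of AT5G58330, and the roles of the other two are given as background. None of the 7 is itself a free thioredoxin.

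All 7 genes gave an intensity above 0 on all 12 arrays, on a linear scale set by the authors on which array means lay between 0.857 and 1.04. Array medians over all rows were lower, between 0.351 and 0.486. Between 10.3% and 15.2% of rows were listed at 0 on an array. The highest intensity on an array was between 65.9 and 100. In deviations from the group mean over all rows, arrays with adjacent numbers resembled each other more than other arrays of their group. Replicates 1 and 2, 3 and 4, and 5 and 6, called sets here, correlated between -0.06 and 0.54 in the treated group and between 0.19 and 0.73 in the water group. Other pairs of a group lay between -0.42 and -0.19. The labels do not explain the sets. Each call is therefore given also with the arrays of a set averaged, which leaves 3 values against 3. The number of arrays limits the precision. Neither leaf nor root markers could be used to check the tissue, since 0 of 8 genes in each of these lists had a row of their own.

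Transcripts of AT5G58330, the chloroplast malate dehydrogenase activated by thioredoxin, were 1.96-fold higher after treatment, and those of SRX, the sulfiredoxin, 1.38-fold higher. Transcripts of the peroxiredoxin AT3G52960 were 1.43-fold lower. In RNA from whole samples, a change in the number of cells of a type and a change in RNA per cell cannot be told apart. CCS, GLDH, NTRC and AT2G04700 did not pass the test. Thus 2 of 7 genes rose, 1 fell and 4 were not called at an adjusted p under 0.05, in limma with Benjamini-Hochberg adjustment over 3439 rows. Of all rows, 33.2% were called, 16.8% higher and 16.4% lower, so the count among these genes is close to the background. With intensities as deposited, 38.9% of the called rows were higher, against 50.6% after normalization, and the 3 called genes kept their direction under both. The median absolute log2 fold change of the 7 genes was 0.46, against 0.43 over all rows. When the arrays of each set were averaged, limma called 0 of the 7 genes, and 2 had an unadjusted p under 0.05. In that comparison 12% of all rows were called, and 29.8% had an unadjusted p under 0.05. With the set also as a block, limma called 0 of the 7 genes and 6.28% of all rows, and 3 of the 7 had an unadjusted p under 0.05, as had 31.1% of all rows. With the arrays of a set as a random block, AT5G58330 was called, 1 of the 7 genes, against 22% of all rows. The exact permutation test used below, which treats arrays as independent, gave an unadjusted p under 0.05 for 4 of the 7 genes and for 41.7% of all rows.

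**Figure D1:**
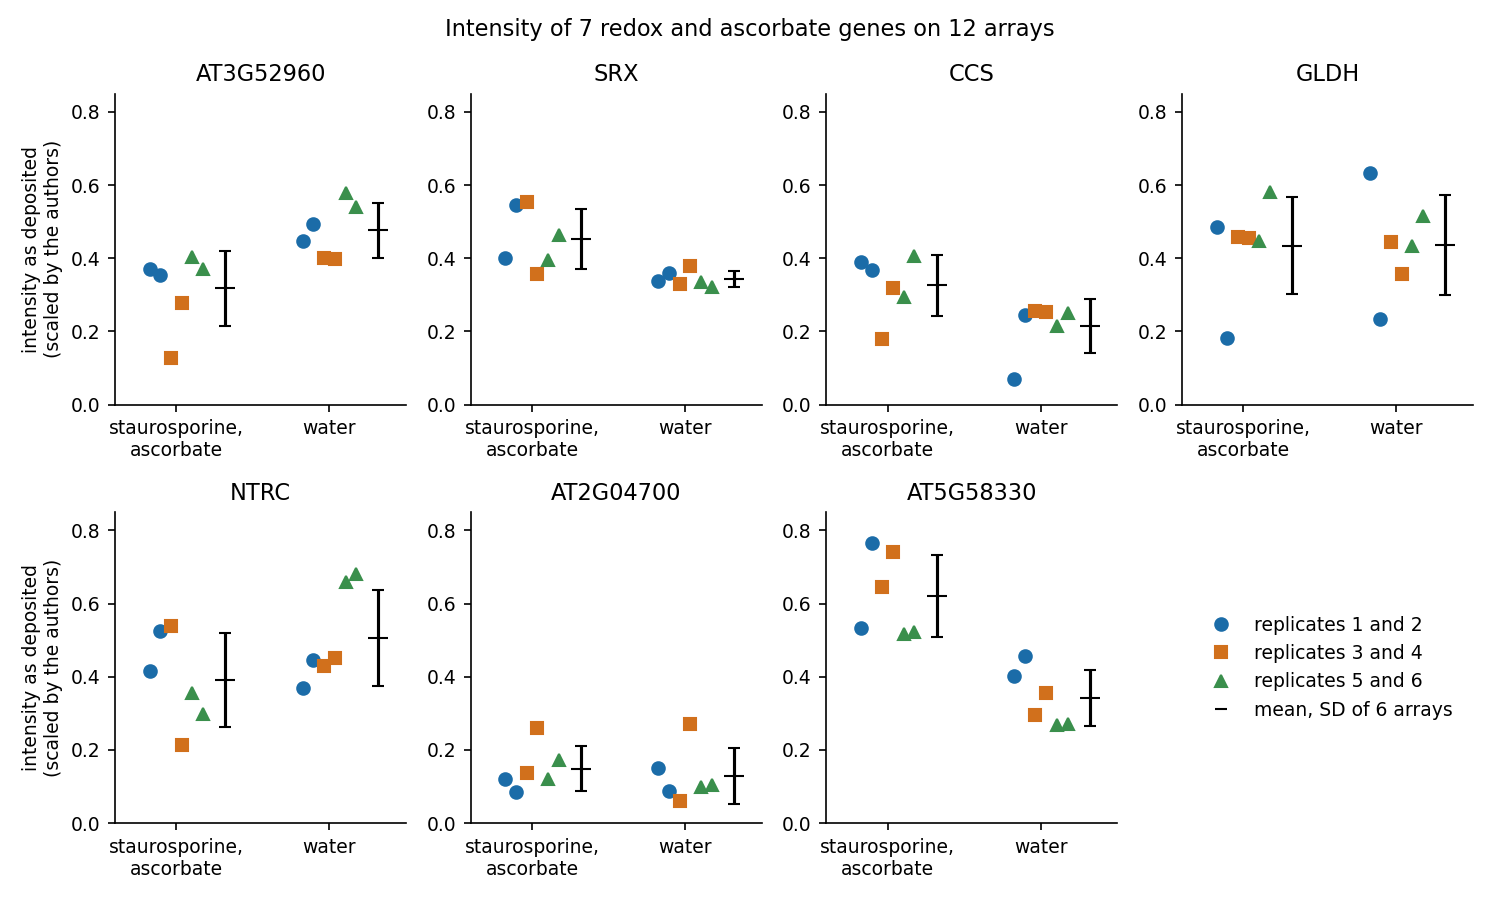
Deposited intensity (linear scale set by the authors) of each of the 7 genes, with treated arrays left of water arrays; symbols mark sets of adjacent replicate numbers and bars the mean and SD of 6 arrays. The treated and water values of AT5G58330 lie apart, whereas those of GLDH and AT2G04700 cover the same range.

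AT3G52960 encodes a plastid peroxiredoxin of type II, which removes peroxides in the chloroplast stroma. Its intensity was 0.128 at the lowest, 0.362 at the median and 0.404 at the highest in treated samples, against 0.397, 0.471 and 0.579 in water samples. In deposited intensities 5 of 6 treated arrays lay below every water array, and the remaining one, treated replicate 5, stood above water replicates 3 and 4. After normalization between arrays the groups did not overlap, as was the case in 19.8% of all rows. The log2 fold change on normalized intensities was -0.52 ± 0.152 (SE), with a limma adjusted p of 0.0222. This is 1.43-fold lower in treated samples. An exact two-sided permutation test over 924 splits of the arrays gave an unadjusted p of 0.00216, the smallest it can give. Groups without overlap always give this value, so it adds nothing to the lack of overlap. It follows likewise that treated arrays were lower in 6 of 6 pairs with the same number and in 3 of 3 sets. The log2 fold changes were -0.24, -0.69 and -0.63 in sets 1, 2 and 3. Treated replicate 3 was far below the others, and without it the log2 fold change was -0.37 with a limma adjusted p of 0.00347. The call did not hold on means of sets (limma adjusted p 0.0999), with intensities as deposited (0.0789), with median centring (0.0551) or without water replicate 5 (0.0506), and its direction held in each of these.

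SRX is sulfiredoxin, which uses ATP to restore the overoxidised cysteine of typical peroxiredoxins. Its intensity ranged from 0.357 through a median of 0.432 to 0.554 in treated samples, and from 0.323 through 0.336 to 0.378 in water samples. The water arrays lay close together, with a coefficient of variation of 6.17%, against 18.2% in treated samples. Treated replicate 4 was the single treated array inside the water range of deposited intensities. After normalization 4 of 6 treated arrays lay above every water array. The log2 fold change was 0.46 ± 0.152 (SE), or 1.38-fold with a 95% interval from 1.09 to 1.74, and the limma adjusted p was 0.0375. The exact permutation test gave an unadjusted p of 0.0130. On normalized intensities treated arrays were higher in 6 of 6 same-numbered pairs, and within sets the log2 fold change was 0.55, 0.50 and 0.34. In deposited intensities, by contrast, treated replicate 4 (0.357) lay below water replicate 4 (0.378). The adjusted p stood near the threshold. It rose to between 0.0513 and 0.0788 in limma without treated replicate 2, 3 or 4 or water replicate 1, 2, 3, 5 or 6, and was 0.169 on means of sets.

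CCS is the copper chaperone that loads copper into copper/zinc superoxide dismutases, the enzymes that turn superoxide into peroxide. Its intensity ran from 0.181 through a median of 0.342 to 0.406 in treated samples, against 0.0696, 0.248 and 0.256 in water samples. In deposited intensities 5 of 6 treated arrays lay above every water array, and treated replicate 3 lay within the water range. After normalization 4 of 6 did. The log2 fold change was 0.80 ± 0.349 (SE) and missed the threshold (limma adjusted p 0.104). The exact permutation test gave an unadjusted p of 0.0216, and of 0.0584 without treated replicate 1, 2, 4 or 6. Water replicate 1, at 0.0696, carried much of the difference. Without it the log2 fold change was 0.48 with a limma adjusted p of 0.0804. With all arrays, the sets stood at 1.70, 0.18 and 0.53. With the floor at the 10th percentile of positive intensities (0.144), which raises that array, the log2 fold change was 0.60 and the limma adjusted p 0.0448.

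GLDH catalyses the last step of ascorbate synthesis in mitochondria. Its intensity spanned 0.183 to 0.581 in treated samples (median 0.456) and 0.233 to 0.633 in water samples (median 0.439), ranges that largely coincide. The log2 fold change was 0.09 ± 0.288 (SE), with a 95% interval from -0.54 to 0.73 and a limma adjusted p of 0.864. On the linear scale this interval runs from 0.686-fold to 1.66-fold. Replicate 2 was the lowest array in both groups, at 0.183 after treatment and 0.233 in water. With the replicate number as a block, which removes such shared deviations, the SE was 0.103 and the limma adjusted p 0.516. The direction of the difference was not settled, being -0.16, 0.34 and 0.10 in the sets.

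NTRC joins a thioredoxin reductase and a thioredoxin domain in 1 plastid protein and passes electrons from NADPH to peroxiredoxins. Its intensity was between 0.213 and 0.539 in treated samples (median 0.386) and between 0.368 and 0.680 in water samples (median 0.449). The groups overlapped, and the log2 fold change was -0.35 ± 0.253 (SE) with a limma adjusted p of 0.331. The sets went in different directions. In replicates 1 and 2 both treated arrays were above their same-numbered water arrays (log2 fold change 0.32), in replicates 3 and 4 one was (-0.15), and in replicates 5 and 6 neither was (-1.23). In the set of replicates 5 and 6 the mean intensity was 0.327 in treated and 0.669 in water samples, whereas in the first it was 0.471 in treated and 0.407 in water samples. The water arrays of replicates 5 and 6 were the highest of their group. Without this set the log2 fold change was 0.09 (limma adjusted p 0.882).

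A test of whether the treatment difference varied between sets, the group by set interaction in limma, called 0 of the 7 genes, against 16.7% of all rows. NTRC was the 1 gene with an unadjusted p under 0.05 (F 5.61, unadjusted p 0.0370, adjusted p 0.131), which 31.5% of all rows had. This test takes the gap between the 2 arrays of a set as its error. It called NTRC without treated replicate 3 (limma adjusted p 0.0143) or 4 (0.00939), AT3G52960 without treated replicate 4 (0.00802) and CCS without water replicate 2 (0.0470). In each of these fits a single array stands for its group in that set. Of 3439 rows, the test called 769 without treated replicate 3, 837 without treated replicate 4 and 389 without water replicate 2.

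**Figure D2:**
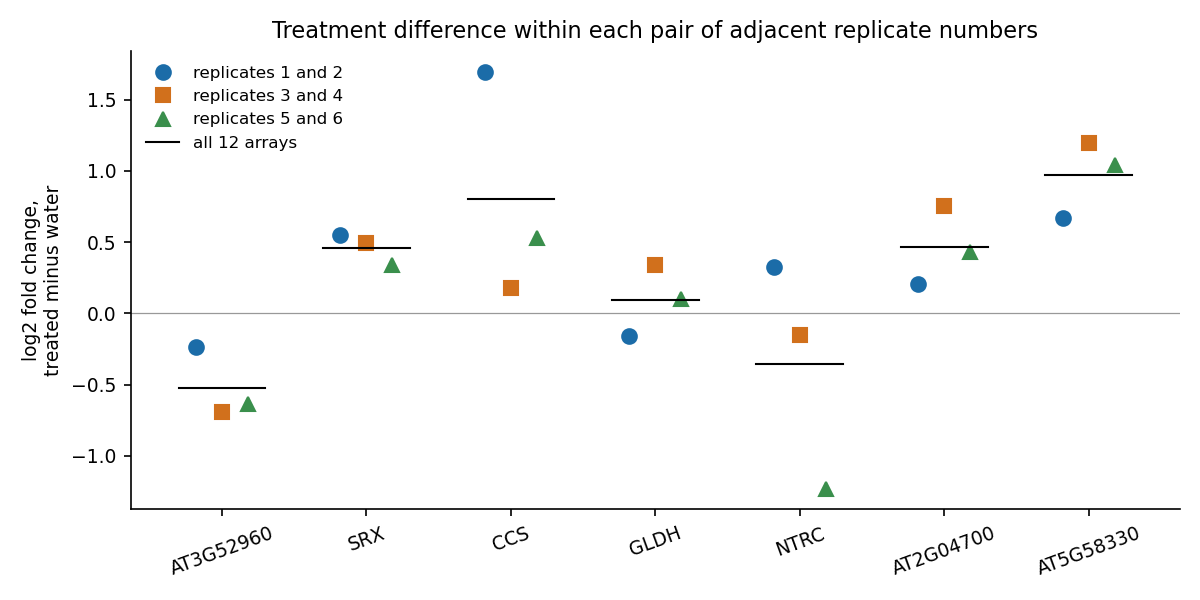
Log2 fold change, treated minus water, on normalized intensities within each set of adjacent replicate numbers (2 arrays against 2, symbols) and over all 12 arrays (lines). The sets share a sign in each of the 7 genes except GLDH and NTRC, and NTRC runs from 0.32 in replicates 1 and 2 to -1.23 in replicates 5 and 6.

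AT2G04700 encodes the catalytic subunit of ferredoxin-thioredoxin reductase, which hands electrons from ferredoxin to chloroplast thioredoxins. Its intensities ran from 0.0854 to 0.259 in treated samples (median 0.128) and from 0.0616 to 0.271 in water samples (median 0.101). Both medians lay below the 10th percentile of positive intensities (0.144), so this is a dim row. Replicate 4 was the highest array in both groups, at 0.259 after treatment and 0.271 in water. The log2 fold change was 0.46 ± 0.499 (SE), with a 95% interval from -0.64 to 1.56 and a limma adjusted p of 0.521. Without 1 array the log2 fold change lay between 0.19 (without treated replicate 4) and 0.77 (without treated replicate 5 or water replicate 4), and with the floor at the 10th percentile it was 0.11. The sets stood at 0.21, 0.75 and 0.43. With the replicate number as a block the SE was 0.217 and the limma adjusted p 0.152. The log2 fold change over all arrays was of the size seen for SRX, but with a larger SE, and it was not called.

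AT5G58330 is NADP-dependent malate dehydrogenase of the chloroplast, which thioredoxin activates in the light and which exports reducing equivalents as malate. Its intensity was 0.517 at the lowest, 0.589 at the median and 0.765 at the highest in treated samples, against 0.269, 0.326 and 0.457 in water samples. Every treated array lay above every water array, in deposited and in normalized intensities. The mean was 0.621 ± 0.113 in treated and 0.342 ± 0.0767 in water samples (SD, n = 6 each). The log2 fold change was 0.97 ± 0.209 (SE), or 1.96-fold with a 95% interval from 1.42 to 2.70, and the limma adjusted p was 0.00471. The absolute log2 fold change was at or above that of 82.3% of all rows. The exact permutation test gave an unadjusted p of 0.00216, the smallest it can give, which groups without overlap always give. Within sets the log2 fold change was 0.67, 1.20 and 1.04. That treated arrays were higher in every set and in 6 of 6 same-numbered pairs also follows from the lack of overlap. The rise was called without any 1 of the 12 arrays (limma adjusted p 0.00491 to 0.0115) and with the arrays of a set as a random block (0.0144), but not on means of sets (0.104), also with the set as a block (0.0666), or without replicates 3 and 4 (0.0522).

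In deposited intensities, replicate 2 had the highest value of AT5G58330 in the treated and in the water group, at 0.765 and 0.457, and replicate 5 the lowest, at 0.517 and 0.269. After normalization replicate 5 was again the lowest in both groups, but the highest treated array was replicate 4 and the highest water array replicate 2. With the replicate number as a block, the SE of its log2 fold change was 0.103 and the limma adjusted p 0.00151.

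**Figure D3:**
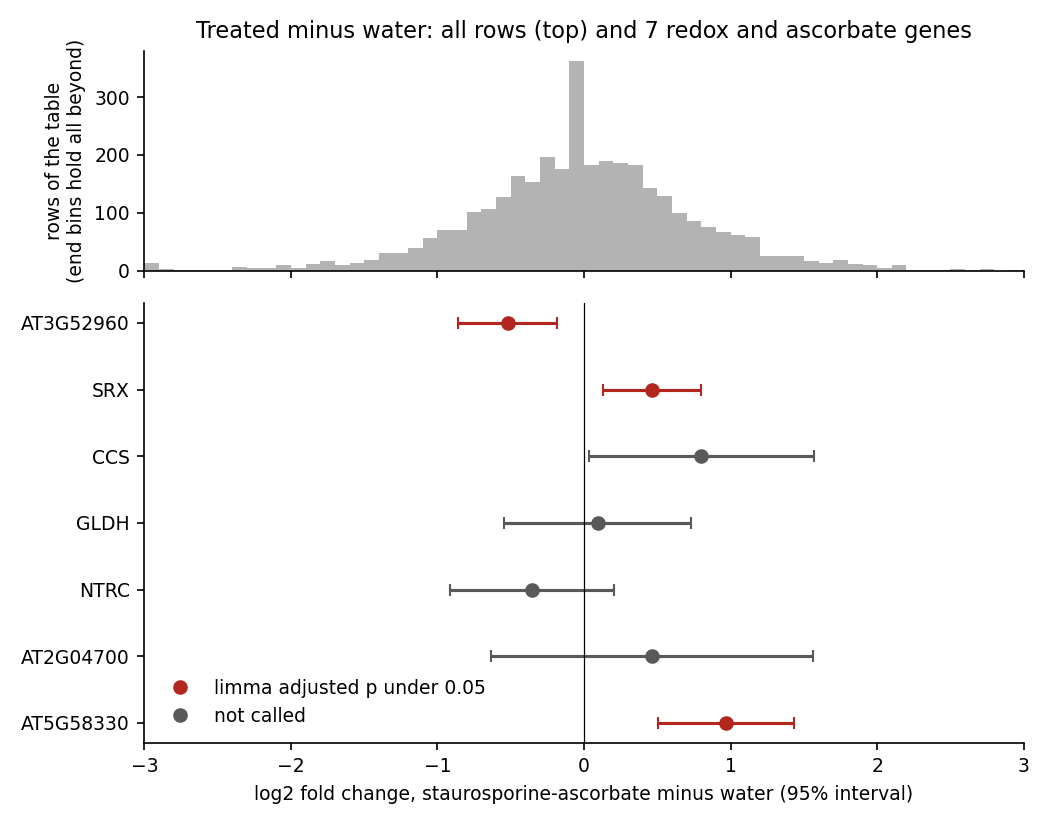
Log2 fold change, staurosporine-ascorbate minus water, on normalized intensities: histogram over all 3439 rows (top) and the 7 genes with 95% intervals from limma (bottom). AT5G58330, SRX and AT3G52960 (red) were called, and all 7 values lie within the bulk of the table.

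Few other genes of these pathways had a row of their own. Of 106 genes in 8 lists covering peroxiredoxins, superoxide dismutases, ascorbate synthesis and recycling, catalases, glutathione, thioredoxins, their reductases and the enzymes they regulate, 9 had one, 11 were on rows shared by several genes and 86 had no row in the annotation used. Besides the 7 genes described, the 9 comprise PRK and SBPASE, a pair of Calvin cycle enzymes that thioredoxin activates. PRK, phosphoribulokinase, stood at 0.565 ± 0.0831 in treated and 0.641 ± 0.117 in water samples (SD, n = 6 each), and its log2 fold change was -0.07 ± 0.109 (SE, limma adjusted p 0.701). SBPASE, sedoheptulose bisphosphatase, was listed at 0 on all 12 arrays, and no level is stated for it. No thioredoxin, ascorbate peroxidase, catalase or superoxide dismutase gene of the lists had a row of its own, so the dismutases and thioredoxins that CCS and AT2G04700 serve are not analysed here.

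For each gene, the other single-gene row with the most similar profile over the 12 arrays was found by the root-mean-square difference of centred log2 intensities. This difference is small for rows that vary little. SRX was nearest to AT2G28755 (0.154) and NTRC to APS4 (0.203), an ATP sulfurylase of sulfate assimilation. AT5G58330 was nearest to AT3G27550 (0.205) and AT3G52960 to AT2G48090 (0.233). GLDH was nearest to AT5G55580 (0.345), CCS to AT2G02590 (0.449) and AT2G04700 to AT1G64430 (0.584). The median difference from the 544 candidates was between 0.533 for SRX and 0.924 for AT2G04700. Relative to the gene's own root-mean-square variation over the arrays, the difference ran from 0.345 for AT5G58330 to 0.728 for GLDH. None of the 7 genes was the nearest of another.

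The log2 ratio of a pair of genes within an array does not depend on a factor common to the array. Only its difference between groups can be read, since the levels of different rows are not comparable. Of 21 pairs among the 7 genes, 5 (23.8%) had ratios that did not overlap between groups in deposited intensities, against 20.4% of 148240 pairs of single-gene rows above 0 on every array, so the share is close to the background. The ratio of AT3G52960 to SRX, a peroxiredoxin and the repair enzyme of other peroxiredoxins, averaged -0.58 ± 0.781 in treated and 0.46 ± 0.274 in water samples (SD, n = 6 each, log2 scale). The ratio of SRX to NTRC averaged 0.26 ± 0.341 in treated and -0.52 ± 0.400 in water samples. The ratio of NTRC to AT5G58330 averaged -0.72 ± 0.562 in treated and 0.56 ± 0.630 in water samples. The other ratios without overlap set AT3G52960 against CCS (difference -1.34, treated minus water) and against AT5G58330 (-1.53). These ratios were given no test.

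**Figure D4:**
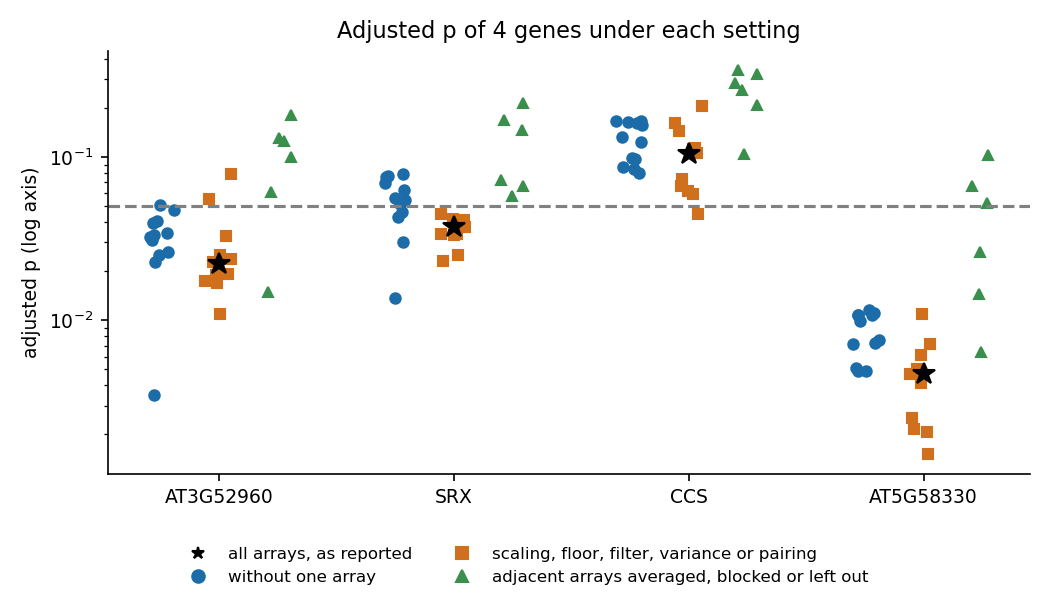
Adjusted p on a log axis (from limma, except for 1 exact permutation test per gene) for 4 genes under each setting tried; the dashed line marks 0.05. AT5G58330 stays below the line without any 1 array, AT3G52960 in 11 of 12 such fits and SRX in 4 of 12. The 3 called genes cross the line when arrays of a set are averaged.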

How the data were processed

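Per the deposited value table, each row and array has 1 linear intensity; the scanning, background correction and scaling that the authors used are not stated in the labels. Columns were tied to groups and replicate numbers through the sample titles. Intensities were quantile-normalized between arrays, values under the 1st percentile of positive intensities (0.0157) were set to that floor, and log2 was taken. No value of the 7 genes was that low. A shift shared by most transcripts would be removed by this step. limma 3.58.1 (R 4.3.3) was fitted with lmFit and eBayes on group alone, and p-values were adjusted over 3439 rows by Benjamini-Hochberg. Rows were named through the platform annotation, which can be old, and the TAIR10.1 gene table, to which 690 of 692 single-gene rows matched. No row was filtered out. The tests were tried on simulated data with independent noise on each array. Deviations shared between arrays, as seen here, were not simulated, so errors under such sharing are not known from it. Figures used matplotlib 3.10.9 in Python 3.11.15.

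All 7 genes are named whatever their values, as are all genes of the lists with a row of their own and, for each of the 7, the nearest profile among single-gene rows above 0 on every array. The members and lists were chosen with earlier results of these data known. To check pairing, the deviations of treated and water arrays with 1 number were correlated over all rows. They gave r between 0.35 and 0.47, all above 0.1, so the numbers may pair samples, although no label states it. The main limma fit, with its SE and intervals, and the exact permutation test left this pairing out. It entered only the counts of same-numbered pairs and the fits with the replicate number as a block. Arrays of adjacent numbers also resemble each other, so shared handling cannot be told apart from pairing.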

Additional observations from a re-analysis of the deposited data

Results flagged for a closer look

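The normalized log2 intensities of the 7 genes form 14 groups of 6 arrays. In 3 of these groups a single array stood far from the rest. The nominal rate of such flags is about 5% of groups, for independent and normally distributed values. These groups share arrays, and the share over all rows was not counted, so an excess in these genes is not shown. Treated replicate 3 of AT3G52960 had a value of -2.35, with the remaining treated arrays from -1.65 to -1.41. Water replicate 1 of CCS had a value of -3.98, with the remaining water arrays from -2.48 to -1.82. Treated replicate 2 of GLDH had a value of -2.26, with the remaining treated arrays from -1.35 to -0.87. The water array of GLDH with this number was also the lowest of its group.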

How the results depend on the processing

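All settings were listed with earlier results of these data known, and none was added later. With all arrays 1141 rows changed, and 412 changed on means of sets, 216 with the set also as a block and 755 with the arrays of a set as a random block. Averaging leaves fewer values, which by itself lowers the number of calls. Blocking by replicate number gave 1255 rows and changed no call among the 7 genes. On means of sets, limma no longer called AT3G52960 (log2 fold change -0.52), SRX (0.46) or AT5G58330 (0.97), nor with the set as a block, and with a random block it no longer called AT3G52960 (-0.52) and SRX (0.46). AT3G52960 was lost too with median centring (-0.56), as deposited (-0.66), without set 1 (-0.64) and without set 3 (-0.51), SRX without set 1 (0.41), 2 (0.43) or 3 (0.56), and AT5G58330 without set 2 (0.82). CCS was called with the floor at the 10th percentile (0.60), which raises its lowest array. Leaving out 1 array gave -0.56 to -0.37 for AT3G52960, lost without water replicate 5, and 0.36 to 0.56 for SRX, lost in 8 of 12 cases. The sign of GLDH turned as deposited (-0.021, exact permutation p 0.933) and without set 2 (-0.027). Without 1 array its log2 fold change ran from -0.086 to 0.30 and its exact permutation p from 0.240 to 0.939. NTRC turned to 0.091 without set 3. The exact permutation p of CCS ran from 0.0152 to 0.0584 without 1 array, missing the threshold without treated replicate 1, 2, 4 or 6. Rows with a group by set interaction numbered 574, and 297 to 837 without 1 array, the lowest without water replicate 5 and 306 without water replicate 6. Beyond the reasons given, the cause of these changes was not tested. AT2G04700 was left out with the dimmest 25% of rows, so it has no value there. Signal over background is unknown, which limits what the dim rows can show.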

Other observations

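Some extremes of a group fell on the same number in both groups. Such coincidences were not counted over all rows, where same-numbered arrays also resembled each other, so they are not shown to be particular to these genes. In deposited intensities the highest array was replicate 5 in both groups for AT3G52960, replicate 4 for AT2G04700 and replicate 2 for AT5G58330. After normalization this held for AT2G04700 and not for AT3G52960 or AT5G58330. The lowest array was replicate 2 in both groups for GLDH and replicate 5 for AT5G58330, on both scales, and after normalization also replicate 5 for AT2G04700. SRX, CCS and NTRC shared no such extreme between groups on either scale.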
